A study of Mus musculus with 32 samples.

Results

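Wnt ligands, their receptors and their inhibitors were followed in whole mouse lung across 8 groups that differed in age, oxygen level and antimiR. Members were chosen by the gene name printed for the probe: the Wnt, Fzd (Frizzled), Sfrp, Dkk and Rspo (R-spondin) series, the co-receptors Lrp5 and Lrp6, the inhibitor Wif1, and Axin2, Lef1, Tcf7 and Nkd1, which act inside the cell. A probe was kept if the scanner software had marked its signal as well above background in every one of the 4 mice of some group. Of the 60 probes that matched, for 48 genes, 52 probes for 43 genes were kept, among 39160 kept of 55681 probes on the array. At P5, 49 of these probes (40 genes) could be tested, and at P14 all 52 (43 genes). Wnt2b, Wnt3, Wnt8a, Dkk1 and Dkk4 had no kept probe, and Wnt3a, Wnt8b and Wnt9b had none that could be tested at P5. Each gene is given by its tested probe of highest mean signal over all arrays. Wnt4, Axin2, Lef1, Nkd1, Tcf7, Fzd2, Fzd5, Fzd7 and Lrp6 had a second tested probe.

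The study asked how blocking the microRNA miR-34a changes a lung whose formation of alveoli is arrested by high oxygen, a mouse model of bronchopulmonary dysplasia. Each of the 32 arrays held RNA from the perfused lungs of 1 pup, and the methods name C57Bl/6J mice of both sexes. Pups breathed 21% O2 (normoxia) or 85% O2 (hyperoxia) from the first days of life and were given a scrambled antimiR, an oligonucleotide with no target, or antimiR-34a, which binds miR-34a. At each age, P5 or P14 (the labels' protocol adds part of a day to both), there were therefore 4 groups of 4 mice: 21% O2 with scrambled antimiR, 21% O2 with antimiR-34a, 85% O2 with scrambled antimiR and 85% O2 with antimiR-34a. No group was left uninjected. The drug used to kill the mice differed between the ages in the labels.

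Wnt proteins are secreted lipid-modified ligands that bind Frizzled receptors together with the co-receptor Lrp5 or Lrp6. Binding keeps β-catenin from being destroyed, and β-catenin then acts with the DNA-binding factors of the TCF and LEF family on target genes, of which Axin2 and Nkd1 feed back as inhibitors. R-spondins bind Lgr receptors and keep Frizzled receptors on the cell surface, Sfrp proteins and Wif1 bind Wnt ligands outside the cell, and Dkk proteins act on the co-receptors. In the lung, Wnt signals take part in branching, in the growth of mesenchyme and smooth muscle, and in the upkeep of type II cells of the alveolus.

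MicroRNAs of the miR-34 family have been reported elsewhere to repress Wnt1, Lrp6, Lef1 and Axin2, so the target of the antimiR is printed here with family members that share its seed. The mature sequences are from RefSeq on GRCm38.p6, 5′ to 3′, and the capitals mark the seed, bases 2 to 8. The miR-34a gene product lies at chr4:150068473-150068494 on the plus strand, that of miR-34b at chr9:51103610-51103632 on the minus strand and that of miR-449a at chr13:113037549-113037570 on the plus strand.
miR-34a-5p: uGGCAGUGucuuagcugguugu
miR-34b-5p: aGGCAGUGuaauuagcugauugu
miR-449a-5p: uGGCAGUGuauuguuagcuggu
The 3 seeds are the same, and the DNA letters that pair with them, CACTGCC, were found in 0 of the 60 member probes, so no probe itself reads such a site.

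The promoters of the members were searched for CTTTGAT, a core motif of the TCF and LEF factors, on both strands, the other strand reading ATCAAAG. Of 43 kept genes, 29 had a promoter in the RefSeq table (GRCm38.p6, 250 bases before and 50 after each start), with 36 promoters in all. The motif was found in 2 of these 36, and in 1225 of all 32851 promoters (3.73%). Both are shown, with the motif in capitals. The ligands they belong to, Wnt5b and Wnt11, were lower in 85% O2. So were Axin2 (first probe), Lef1, Tcf7, Rspo4, Wif1 and Wnt6, whose promoters held no such motif, and the other promoters of Wnt5b and Wnt11 held none. The Wnt5b window lies at chr6:119449440-119449468 on the minus strand, with the motif 71 bases before the start. The Wnt11 window lies at chr7:98835050-98835078 on the plus strand, 51 bases before the start.
Wnt5b: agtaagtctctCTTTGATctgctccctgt
Wnt11: gacgtgggcggATCAAAGcgacggtccgc
A match is a description of letters and no evidence of binding.

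The arrays lay on 4 slides of 8, each slide with a single age and oxygen level and, within it, one row of scrambled and one of antimiR-34a arrays. Differences between oxygen levels or ages therefore cannot be told apart from differences between slides, nor the antimiR from the row. Between 33614 and 40786 probes were well above background per array, no member spot was saturated, and all 8 genes of the type II list (surfactant genes among them) were detected on all 32 arrays, as lung should show. Of the 4 mice given scrambled antimiR in 21% O2 at P5, replicate 4 stood apart. The summed level of 6 skeletal muscle genes was 5.63 there on the log2 scale and -0.02 to 1.21 in the other mice of the group. P14 replicate 4 with scrambled antimiR and replicate 1 with antimiR-34a in 21% O2 differed in brightness from the rest of their groups. So did P5 replicate 3 with antimiR-34a in 85% O2, whose 75th percentile was 9.20 in log2 against 9.77 to 9.93 in its group, and which had the fewest probes above background of all 32 arrays. Nothing in the labels says whether mice of a group shared a litter.

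Levels below are log2 signals scaled so that 0 is the 75th percentile of each array. They compare 1 probe between mice and not different genes with each other. Changes were tested with limma over all tested probes and called at a Benjamini-Hochberg adjusted p under 0.05. In bulk lung, fewer cells of a type and less RNA per cell cannot be told apart.

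In mice given scrambled antimiR, more Wnt family genes were called lower than higher in 85% O2 at both ages. More of all tested probes were too, a balance that turned under quantile normalization (7779 higher of 14739 calls at P5 and 11411 of 21996 at P14). Axin2, the feedback inhibitor often read as a gauge of β-catenin signalling, was 3.52-fold lower at P5 and 5.74-fold lower at P14 on one probe, while its second probe was not called at P5 (0.33 in log2) and was called higher at P14 (0.58). Rspo2, Rspo3 and Rspo4 fell at both ages. At P14 the secreted inhibitors parted, with Sfrp1 5.93-fold and Dkk2 2.75-fold higher and Wif1 5.26-fold lower. The ligand Wnt7a was 2.47-fold higher at P5, and Wnt2 was 3.36-fold higher at P14.

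At P5, 24 of 49 member probes were called, 7 higher and 17 lower, where the methods' t-test called 15 after adjustment. Of all tested probes 43.9% were called at that age, 17.5% higher and 26.4% lower, so the total of the members (49.0%) was near the background. At P14, 38 of 52 were called (73.1%), 14 higher and 24 lower, against 60.8% of all probes, 28.4% higher and 32.4% lower. The median log2 change of the members was -0.11 at P5 and -0.24 at P14, against -0.07 and -0.06 over all probes. Counted by gene, 6 of 40 were higher and 15 lower at P5, and 10 of 43 were higher and 20 lower at P14. The counts by role below are to be read against the same shares of all probes. Under quantile normalization, and in the authors' processed values, the P5 split of the members was 10 probes higher and 13 lower.

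**Figure D1:**
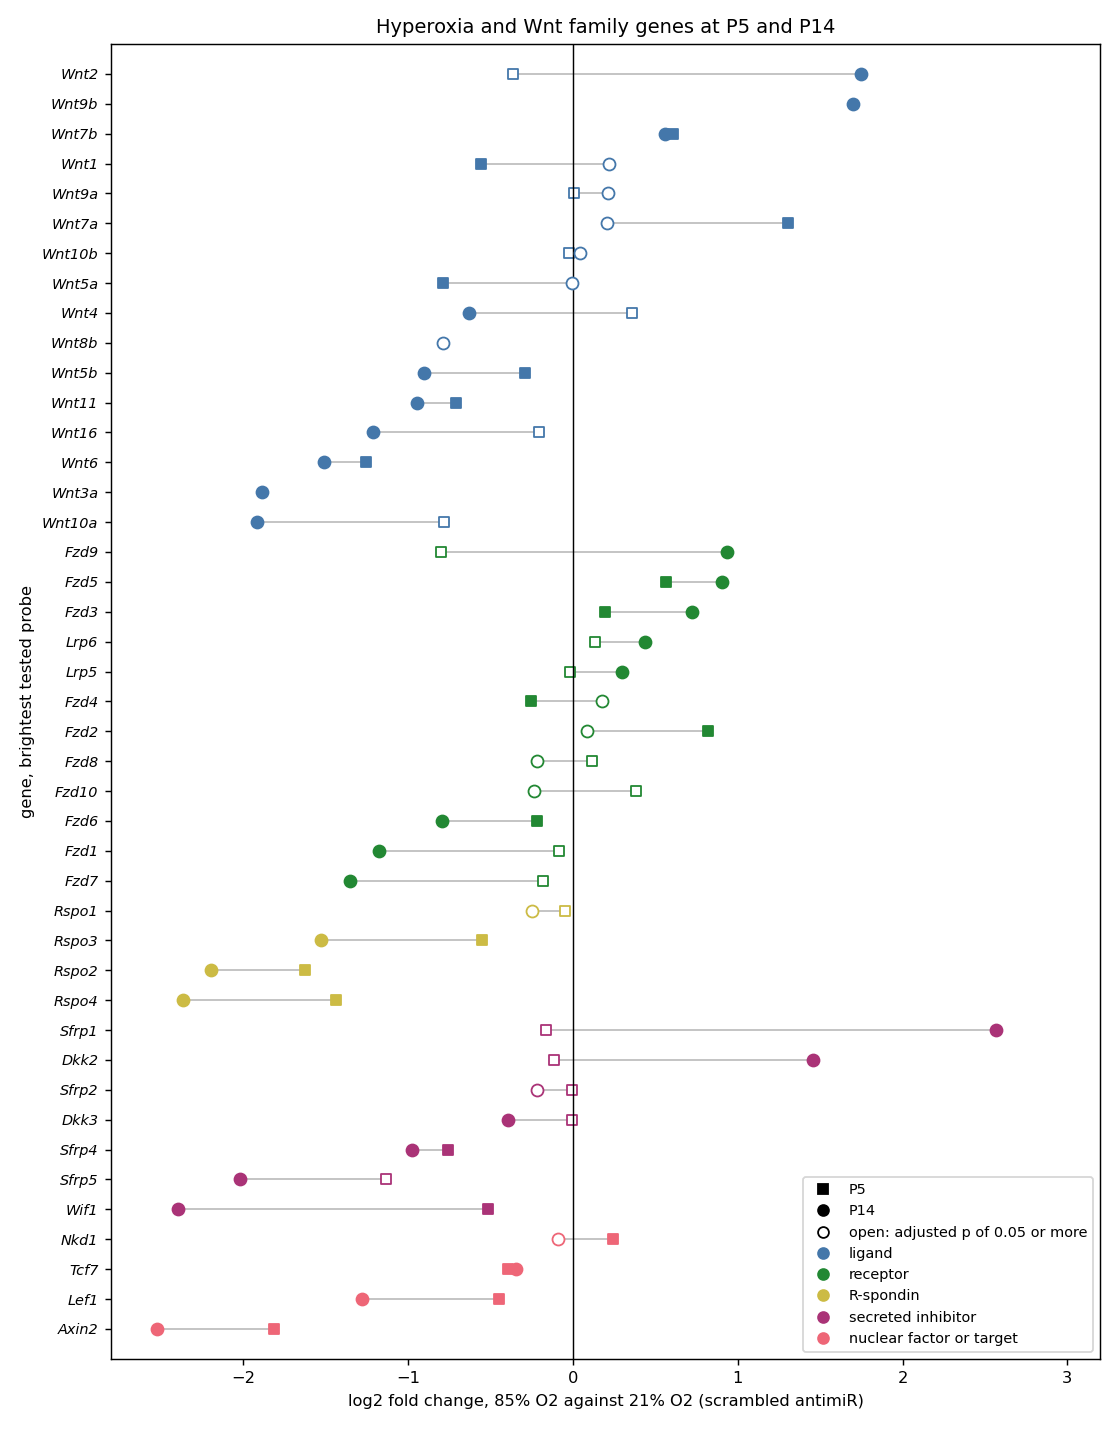
Fitted log2 fold change of 85% O2 against 21% O2 in mice given scrambled antimiR, for each member gene (the tested probe of highest mean signal), squares for P5 and circles for P14, coloured by role, with a line joining the ages. Open symbols have an adjusted p of 0.05 or more. Axin2, Rspo2 and Rspo4 lie far to the left at both ages, while Sfrp1, Dkk2 and Wnt2 are open and left of 0 at P5 and filled and far to the right at P14.

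Of 13 ligands tested at P5, 2 were higher, 5 lower and 6 not called, and of 16 at P14, 3 were higher, 7 lower and 6 not called. Of these P14 calls, those of Wnt3a, Wnt10a, Wnt16 and Wnt9b are of genes that passed the filter at P14 only through groups in which they were high. Wnt2, a ligand of the lung mesenchyme that takes part in lung specification, had log2 levels of -0.33, 0.08, -0.13 and -0.37 at P5 in 21% O2 and of -0.28, -0.78, -0.43 and -0.71 in 85% O2. At P14 its levels were -2.46, -2.81, -2.35 and -2.55 in 21% O2 and -0.99, -1.0, -0.76 and -0.44 in 85% O2. The P5 groups overlapped, and all P14 mice in 85% O2 lay above all P14 mice in 21% O2. The log2 change was -0.36 (SE 0.17, adjusted p = 0.094) at P5 and 1.75 (SE 0.16, adjusted p = 8.79e-07) at P14. The Wnt2 probe lies at chr6:17938994-17939053 on mm9, the build of the array files. Exon and UTR annotation of that build was not used here.

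Wnt7a, a ligand made mainly by epithelium, was at -2.09, -2.03, -2.12 and -2.06 in 21% O2 at P5 and at -1.34, -0.67, -0.72 and -0.35 in 85% O2. These groups did not overlap, and the change was 1.30 in log2 (SE 0.16, adjusted p = 2.36e-05). At P14 the levels were -1.41 to -1.12 in 21% O2 and -1.49 to -0.73 in 85% O2, and the change of 0.21 was not called (adjusted p = 0.33). Its relative Wnt7b, another epithelial ligand, lay between -3.30 and -2.95 in 21% O2 and between -2.82 and -2.35 in 85% O2 at P5 (1.52-fold higher, adjusted p = 0.00433). At P14 it lay between -3.39 and -3.01 and between -2.82 and -2.44 (1.48-fold higher, adjusted p = 0.00055), so that the groups were apart at both ages. In the same P5 mice 7 of 8 type I cell genes were called higher, and their summed level was 7.79 to 7.89 in 85% O2 against 7.21 to 7.44 in 21% O2. The part of that cell type in the change of Wnt7a and Wnt7b was not tested.

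Wnt5a and Wnt11, ligands best known for signalling without β-catenin, were both lower at P5. Wnt5a was at 2.98, 3.17, 3.25 and 3.02 in 21% O2 and at 2.45, 1.96, 2.40 and 2.46 in 85% O2. The groups lay apart (1.73-fold lower, adjusted p = 3.66e-05). At P14 Wnt5a differed by 0.00 in log2 (adjusted p = 0.98), with 2.69 to 3.06 in 21% O2 and 2.78 to 2.97 in 85% O2. Wnt11 fell by 0.71 at P5 (adjusted p = 5.51e-05) and by 0.94 at P14 (adjusted p = 4.78e-06). Its P14 levels were 1.77, 1.78, 1.59 and 1.69 in 21% O2 and 0.87, 0.72, 0.71 and 0.74 in 85% O2. Wnt11 was thus lower in every mouse in 85% O2 than in every mouse in 21% O2 of the same age.

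Wnt6, an epithelial ligand, fell 2.38-fold at P5 (adjusted p = 0.00446) and 2.84-fold at P14 (adjusted p = 3.51e-05). Wnt5b, a relative of Wnt5a, fell by 0.29 at P5 (adjusted p = 0.0427), a call that was lost in 6 of the 8 fits without 1 array (-0.23 without replicate 4 in 21% O2, adjusted p = 0.122), and by 0.90 at P14 (adjusted p = 0.00161). Wnt1, the founding member of the family, was lower at P5 (-0.56, adjusted p = 0.000543), with a change of 0.22 at P14 (adjusted p = 0.0815). Wnt4, a ligand known from kidney and trachea development, was at 0.16, -0.04, -0.10 and 0.86 in 21% O2 and at 0.52 to 0.69 in 85% O2 at P5, its highest value being that of the mouse with skeletal muscle RNA. It changed by 0.36 (adjusted p = 0.0956), where its second probe was called (0.39, adjusted p = 0.0347), and both of its probes were lower at P14, from 0.95 to 1.44 down to 0.36 to 0.86 on the first (-0.63, adjusted p = 0.00246, and -0.37, adjusted p = 0.0249). Wnt9a and Wnt10b were called at neither age.

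Several ligands were near the limit of detection. Wnt3a, a strong activator of β-catenin, was well above background in 4 of 4 mice in 21% O2 and 0 of 4 in 85% O2 at P14, and was at least 1.88-fold lower (adjusted p = 0.000171). Its levels were -5.15 to -4.97 in 21% O2 and -7.85 to -6.41 in 85% O2. It was kept only through the mice in which it was high, and with normexp background correction its log2 change was 0.05. Wnt8b showed the same detection, 4 of 4 against 0 of 4, was kept in the same way, and was not called (adjusted p = 0.0893). Wnt10a was above background in 4 mice in 21% O2 and 1 in 85% O2 at P14, and Wnt16 in 4 and 3 mice. Both were tested at that age only through mice in 21% O2, in which they were high, and with normexp their log2 changes were -0.23 and -0.10 and were not called. The log2 change of Wnt9b at P14 was 1.70 (adjusted p = 0.00261), with the gene above background in 3 mice in 85% O2 and 1 in 21% O2. It was kept only through the 4 mice given antimiR-34a in 85% O2, in which it was high, so its call is no more than a description. Of the ligands with no kept probe, Wnt2b and Wnt8a were above background in no mouse and Wnt3 in 1 of 32.

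**Figure D2:**
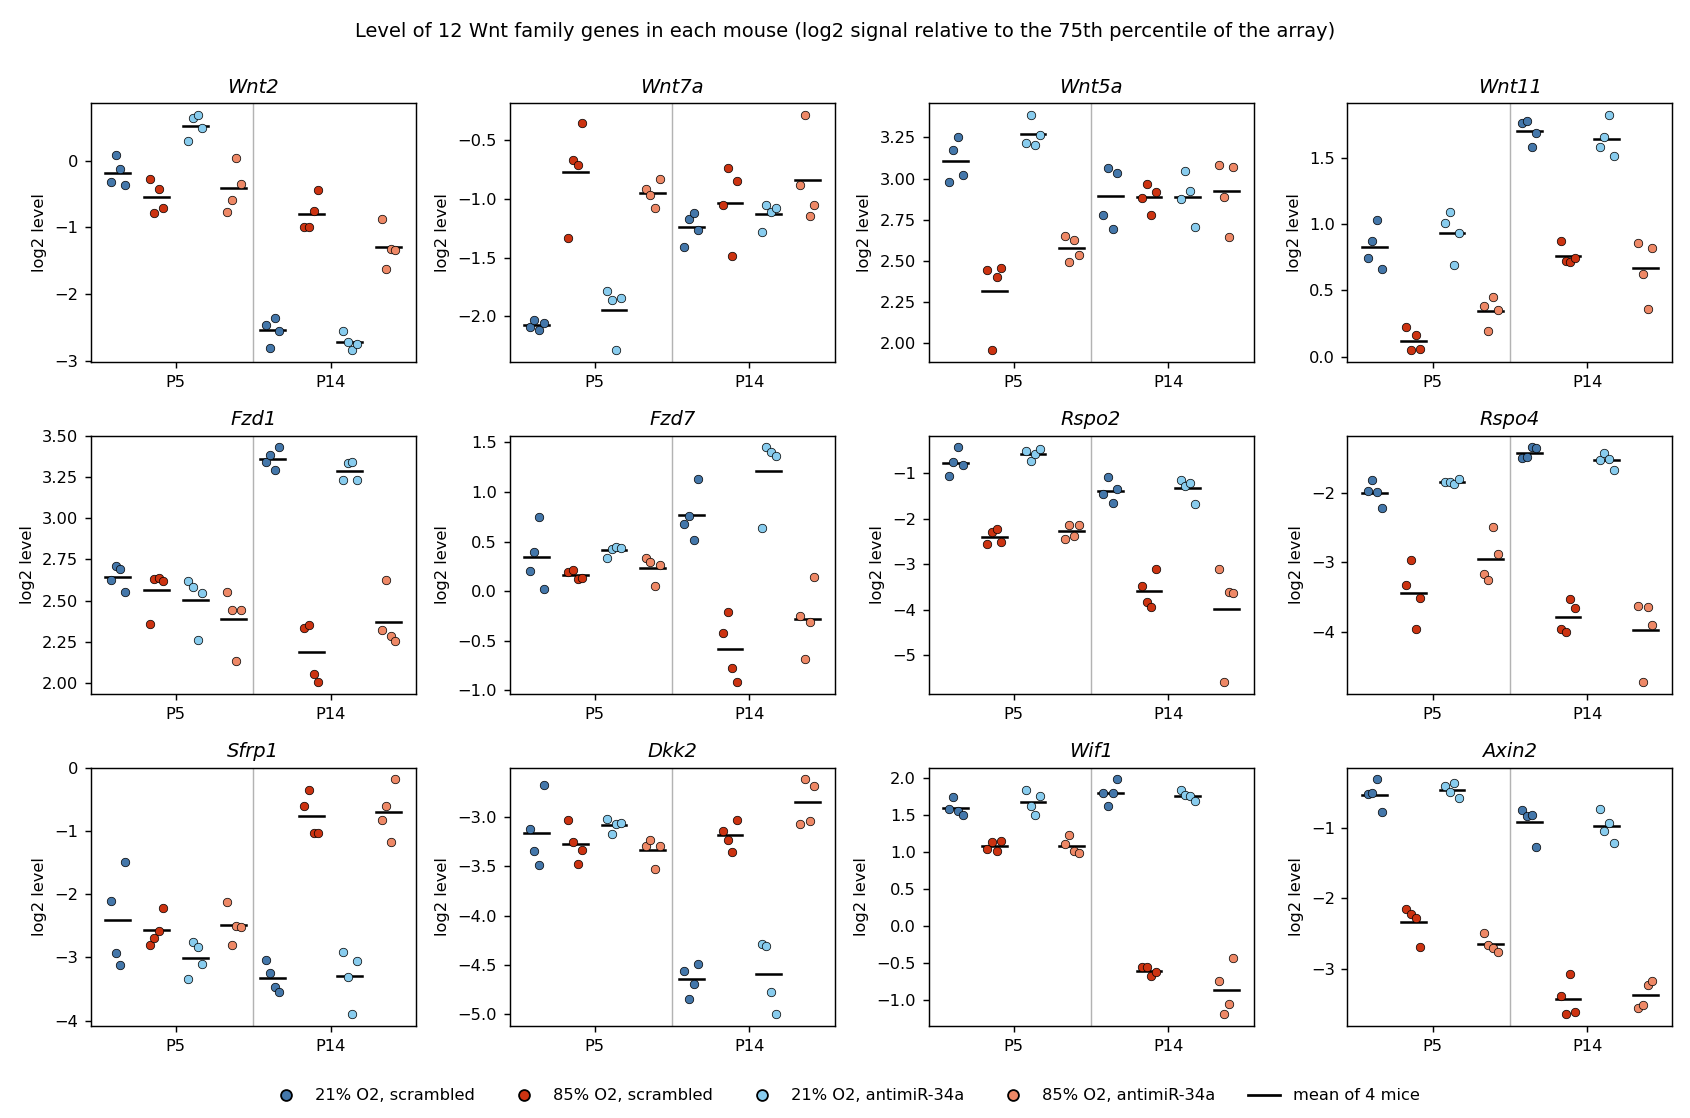
Scaled log2 level (0 marks the array's 75th percentile) of 12 Wnt family genes in each of the 32 mice, by age, oxygen level and antimiR, with bars for the group mean of 4 mice. Axin2, Rspo2, Rspo4 and Wif1 are lower in 85% O2 at both ages, with Wif1 dropping below 0 only at P14, and Sfrp1 and Dkk2 are separated by oxygen at P14.

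Of the 12 receptor genes, 3 were higher, 2 lower and 7 not called at P5, and 5 were higher, 3 lower and 4 not called at P14. Fzd1 had levels of 2.62, 2.71, 2.69 and 2.55 in 21% O2 and of 2.36, 2.63, 2.64 and 2.62 in 85% O2 at P5, where the groups overlapped (adjusted p = 0.542). At P14 it was at 3.34, 3.38, 3.29 and 3.43 in 21% O2 and at 2.33, 2.35, 2.05 and 2.00 in 85% O2. That difference was 2.26-fold (log2 -1.18, SE 0.10, adjusted p = 3.5e-07). Fzd7 was also lower at P14, 2.55-fold (adjusted p = 0.00014), with levels of 0.52 to 1.13 in 21% O2 and -0.92 to -0.21 in 85% O2. At P5 the change of Fzd7 was -0.18 (adjusted p = 0.231) on this probe and -0.43 (adjusted p = 0.00889) on its second probe. Fzd6, which works mainly in planar polarity, fell by 0.79 at P14 (adjusted p = 2.92e-05). Its P5 change of -0.22 (adjusted p = 0.0483) was not called in 6 of the 8 fits without 1 array, the smallest being -0.15 without replicate 3 in 85% O2 (adjusted p = 0.161).

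Other receptors were higher. Fzd2 was at 1.96, 1.86, 1.98 and 2.06 in 21% O2 and at 2.46, 2.78, 2.97 and 2.94 in 85% O2 at P5. The groups did not overlap (1.76-fold, adjusted p = 4.7e-05), yet the second Fzd2 probe changed by 0.08 (adjusted p = 0.274). At P14 the first probe changed by 0.09 (adjusted p = 0.578) and the second by 0.28 (adjusted p = 0.0411). Fzd3, another planar polarity receptor, was 1.65-fold higher at P14 (adjusted p = 2.27e-06), and Fzd5 was 1.48-fold higher at P5 (adjusted p = 0.00557) and 1.87-fold at P14 (adjusted p = 0.000252). The second Fzd5 probe was called at P14 alone (0.51, adjusted p = 0.00869), with 0.44 at P5 (adjusted p = 0.0647). The co-receptors rose slightly at P14 alone among the called values, Lrp5 by 0.30 (adjusted p = 0.00373) and Lrp6 by 0.44 (adjusted p = 0.000575) and, on its second probe, by 0.30 (adjusted p = 0.0203). Lrp5 lay between 0.60 and 0.65 in 21% O2 and between 0.74 and 1.13 in 85% O2. Lrp6 was at 3.38, 3.33, 3.37 and 3.50 in 21% O2 and at 3.65, 3.77, 3.80 and 4.12 in 85% O2. Fzd4, a receptor of vessel development, fell by 0.25 at P5, from 2.95 to 3.13 down to 2.58 to 2.96 (adjusted p = 0.0127), and changed by 0.18 at P14 (adjusted p = 0.1). Fzd3 at P5 (0.19, adjusted p = 0.027) lost its call in 4 of the 8 fits without 1 array, down to 0.14 without replicate 4 in 21% O2 (adjusted p = 0.0854). Fzd9 was higher at P14 (0.93, adjusted p = 0.0147), a call lost without replicate 2 of the mice in 21% O2 (0.71, adjusted p = 0.0528). Fzd8 and Fzd10 were called at neither age.

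Of the 4 R-spondins, 3 were lower and 1 was not called at each age. Rspo2, which the lung needs for branching, was at -1.07, -0.76, -0.44 and -0.83 in 21% O2 at P5 and at -2.55, -2.29, -2.23 and -2.52 in 85% O2. By P14 its levels were -1.46, -1.10, -1.67 and -1.35 in 21% O2 and -3.47, -3.83, -3.95 and -3.11 in 85% O2. The groups were apart at both ages, by 3.08-fold (adjusted p = 3.18e-07) and 4.58-fold (adjusted p = 0.000325). Rspo4 was at -1.98, -1.82, -1.99 and -2.22 in 21% O2 and at -3.33, -2.97, -3.95 and -3.52 in 85% O2 at P5. The P14 levels were -1.51, -1.48, -1.35 and -1.35 in 21% O2 and -3.96, -4.00, -3.53 and -3.65 in 85% O2. Rspo4 thus fell 2.71-fold (adjusted p = 3.34e-05) and 5.14-fold (adjusted p = 3.53e-07). Rspo3, a regulator of vessels, lay between -3.21 and -2.77 in 21% O2 and between -3.69 and -3.45 in 85% O2 at P5, and between -2.54 and -2.28 and between -4.20 and -3.46 at P14. It fell by 0.55 (adjusted p = 0.00599) and 1.52 (adjusted p = 0.00158), and the P5 call was lost under quantile normalization (-0.32, adjusted p = 0.0632). Rspo1, also a gene of mesothelium, overlapped between the oxygen levels at both ages, with 0.36 to 1.18 in 85% O2 and 1.01 to 1.06 in 21% O2 at P14. It changed by -0.05 (adjusted p = 0.921) and -0.25 (adjusted p = 0.257).

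The receptors of the R-spondins, Lgr4, Lgr5 and Lgr6, are no members by name and were read from a separate pathway list. All 3 were lower at both ages, by 0.80, 0.82 and 0.60 in log2 at P5 (adjusted p = 0.000129, 0.0274 and 0.0072) and by 0.88, 2.25 and 0.69 at P14 (adjusted p = 0.00736, 3.07e-06 and 0.0035). Lgr5 had a mean level of -2.70 ± 0.19 in 21% O2 and -4.95 ± 0.21 in 85% O2 at P14 (SD, n = 4 each). Lgr4 was above background in 3 of 4 mice in 85% O2 at P14. Rnf43 and Znrf3, the membrane ligases that R-spondins hold back, were higher at P5, by 0.39 (adjusted p = 0.0016) and 0.37 (adjusted p = 0.00622). At P14 their changes were -0.10 (adjusted p = 0.438) and 0.03 (adjusted p = 0.869).

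Of the 7 secreted inhibitors, none was higher and 2 were lower at P5, and 2 were higher, 4 lower and 1 not called at P14. Sfrp1, which binds Wnt ligands and delays alveolar development when in excess, was at -2.11, -2.92, -3.12 and -1.49 in 21% O2 at P5 and at -2.80, -2.69, -2.58 and -2.21 in 85% O2. In P14 mice the levels were -3.04, -3.24, -3.46 and -3.55 in 21% O2 and -0.60, -0.36, -1.04 and -1.03 in 85% O2. The P5 groups overlapped (adjusted p = 0.672), and at P14 all mice in 85% O2 lay above all in 21% O2 by a wide gap (log2 2.57, SE 0.24, adjusted p = 1.16e-06). Dkk2, a Dkk protein that can block or aid the co-receptors, was also called at P14 alone. Its levels were -3.49 to -2.68 in 21% O2 and -3.48 to -3.03 in 85% O2 at P5 (adjusted p = 0.54), and -4.84 to -4.49 and -3.35 to -3.03 at P14 (log2 1.46, adjusted p = 4.66e-06). The probe for Sfrp1 lies at chr8:24559438-24559497 on mm9.

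Wif1, made in the lung by epithelium and mesenchyme, moved the other way. It was at 1.57, 1.74, 1.55 and 1.49 in 21% O2 and at 1.03, 1.14, 1.00 and 1.14 in 85% O2 at P5. At the later age it was at 1.79, 1.61, 1.79 and 1.98 in 21% O2 and at -0.55, -0.56, -0.67 and -0.62 in 85% O2. Wif1 fell by 0.51 at P5 (SE 0.08, adjusted p = 0.000216) and by 2.39 at P14 (SE 0.13, adjusted p = 8.44e-09), and at both ages the groups lay apart. Sfrp4 fell by 0.75 at P5 (adjusted p = 0.00561) and by 0.97 at P14 (adjusted p = 0.02), and both calls were lost under quantile normalization (-0.49, adjusted p = 0.053, and -0.78, adjusted p = 0.0961). The P14 call was also lost without replicate 1 in 21% O2 (-0.81, adjusted p = 0.0643) or replicate 4 in 85% O2 (-0.89, adjusted p = 0.0517). Sfrp5 fell 4.05-fold at P14 (adjusted p = 0.000482), and at P5 its change was -1.14 (adjusted p = 0.0561). Its P5 levels spread widely in 21% O2 (SD 1.32, against 0.25 in 85% O2, n = 4 each). Dkk3, an outlying member of its family, fell by 0.39 at P14, from 4.79 to 4.94 down to 4.40 to 4.54 (adjusted p = 0.00609), and differed by 0.00 at P5 (adjusted p = 0.986). Sfrp2 was called at neither age, with 0.21 to 0.34 in 21% O2 and -0.18 to 0.49 in 85% O2 at P14. Dkk1 was above background in 2 of 4 mice given scrambled antimiR in 85% O2 at P14 and in 0 of 4 in 21% O2, and was not tested.

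Inside the cell, Axin2 was at -0.52, -0.50, -0.30 and -0.77 in 21% O2 at P5 and at -2.14, -2.23, -2.28 and -2.70 in 85% O2. In the P14 groups it was at -0.74, -0.83, -0.82 and -1.26 in 21% O2 and at -3.39, -3.65, -3.08 and -3.62 in 85% O2. No mouse in 85% O2 came near a mouse in 21% O2, and the log2 changes were -1.81 (SE 0.12, adjusted p = 6.71e-08) and -2.52 (SE 0.15, adjusted p = 2.37e-08). The second Axin2 probe did not follow. It changed by 0.33 at P5 (adjusted p = 0.132) and was higher at P14, by 0.58 (adjusted p = 0.0374). The first probe lies at chr11:108812034-108812093 and the second at chr11:108803927-108803986, both on mm9.

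Lef1, a DNA-binding partner of β-catenin, was at 1.43, 1.61, 1.59 and 1.28 in 21% O2 and at 0.98, 1.18, 0.97 and 0.99 in 85% O2 at P5. Its P14 values were 1.94, 1.99, 1.89 and 1.68 in 21% O2 and 0.39, 0.41, 0.67 and 0.90 in 85% O2. It was lower in 85% O2 at both ages, by 0.45 (adjusted p = 0.000682) and by 1.28 (adjusted p = 1.06e-06), and its second probe was called lower as well (-0.51, adjusted p = 0.000992, and -1.07, adjusted p = 1.39e-05). Tcf7, its relative and a factor of T cells, lay between 0.25 and 0.56 in 21% O2 and between -0.17 and 0.19 in 85% O2 at P5, while the groups overlapped at P14. It fell by 0.40 at P5 (adjusted p = 0.00336) and by 0.35 at P14 (adjusted p = 0.0136), while its second probe was called at P14 alone (-0.35, adjusted p = 0.0356). Nkd1, a feedback inhibitor of Dishevelled, rose by 0.24 at P5, from 3.25 to 3.38 up to 3.47 to 3.65 (adjusted p = 0.00461), and changed by -0.09 at P14 (adjusted p = 0.269). Its second probe was called at neither age.

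Marker lists of other cell types were read against the 43.9% and 60.8% of all probes called at P5 and P14, and several lay near those shares. Of 8 fibroblast genes, 6 were lower and 1 higher at each age, with a summed level of 8.22 to 8.48 in 85% O2 against 8.59 to 8.76 in 21% O2 at P5, and of 8.81 to 8.87 against 8.97 to 9.07 at P14. Pdgfra, the receptor of that list which marks myofibroblasts, fell by 1.26 and 2.46. Of 10 T cell genes, 2 were lower and 1 higher at P5, and 7 were lower and 1 higher at P14 (2.33 to 3.03 against 3.18 to 3.54). Of 7 thymus genes tested at P14, 6 were lower (0.667 to 0.944 against 2.52 to 2.67), while Rag2 was not called. Only 4 thymus genes could be tested at P5. In that list Dntt and Cd1d1 were above background on every array, but Themis, Ptcra, Arpp21 and Rag2 on only 9, 8, 6 and 5 arrays. A gene tested only through a group in which it was high can hardly be called higher elsewhere. The thymus count at P14 is therefore no more than a description. T cells and thymus both express Lef1 and Tcf7. All 7 proliferation genes tested were lower at P5 and 2 at P14, and 6 of 8 smooth muscle genes were lower at P5, while 3 were higher and 1 lower at P14. Of 8 heart muscle genes 7 were lower at P5 and 5 at P14, and of 6 mesothelial genes none was called at P5, while 1 was higher and 2 were lower at P14, Rspo1 itself being in that list. The part of any of these cell types in the Wnt family results was not tested.

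In the remaining lists at P14, 5 type II genes of 8 were lower and 2 higher, 4 type I genes of 8 higher and 1 lower, 2 endothelial genes of 6 higher and 1 lower, 1 club or ciliated gene of 4 higher and 1 lower, 1 of 5 cartilage genes higher and 2 lower, and 3 of 6 skeletal muscle genes lower. At P5, 1 type II gene was higher and 1 lower, 1 endothelial gene higher and 2 lower, no club or ciliated gene was called, 1 cartilage gene of 4 was higher and 1 lower, and 1 of 6 skeletal muscle and 1 of 4 thymus genes were lower.

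Other genes of the pathway, 65 in a list of non-members, were read the same way. At P5, 11 of 61 tested were higher and 21 lower in 85% O2, where 17.5% and 26.4% of all probes were. At P14, 24 of 62 were higher and 20 lower, where 28.4% and 32.4% of all probes were. Of 16 cytoplasmic genes, 3 were higher and 6 lower at P5, and 8 were higher and 2 lower at P14. Ctnnb1, which encodes β-catenin itself, was not called at P14 (-0.13, adjusted p = 0.103), and Gsk3b, a kinase that marks β-catenin for destruction, rose by 0.81 (adjusted p = 3.54e-05). Of 13 receptors and co-receptors, 2 were higher and 6 lower at P5, and 5 were higher and 5 lower at P14. Of 11 nuclear genes, none was higher and 5 were lower at P5, and 2 were higher and 5 lower at P14. Tcf7l1, a repressing TCF, fell by 0.61 at P5 (adjusted p = 1.52e-05), and Tcf7l2 rose by 1.28 at P14 (adjusted p = 5.09e-05). Of 9 planar polarity genes, 2 were higher and 2 lower at P5, and 2 were higher and 4 lower at P14.

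Of the 8 listed targets of β-catenin, 3 were higher and 1 lower at P5, and 5 were higher and 2 lower at P14, ages at which 43.9% and 60.8% of all probes were called. Ccnd1 (cyclin D1) rose by 1.01 (adjusted p = 2.6e-08) and 1.81 (adjusted p = 2.14e-09), with a P14 mean of 3.80 ± 0.03 in 21% O2 and 5.61 ± 0.09 in 85% O2 (SD, n = 4 each). Fosl1, a partner of Jun, was at -2.47 ± 0.33 in 85% O2 at P14 (SD, n = 4) and above background in 1 of 4 mice in 21% O2, so the size of its difference was not measured on both sides. Tnfrsf19, a receptor induced by Wnt signals, fell at both ages, by 0.53 (adjusted p = 0.0003) and 0.77 (adjusted p = 0.00301), and Sp5 fell by 0.43 at P14 (adjusted p = 0.0269). Many other signals also act on Ccnd1, Cd44, Jun, Myc and Fosl1. Whether β-catenin acted in the change of any listed target, higher or lower, was not tested. Wls, which carries Wnt proteins to the cell surface, rose by 0.44 at P5 (adjusted p = 9.5e-05) and 0.24 at P14 (adjusted p = 0.00292). Of the other secreted inhibitors, Sostdc1 and Sost were above background in 4 of 4 mice in 21% O2 and in 1 and 0 of 4 in 85% O2 at P14, where they were kept only through mice in 21% O2.

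Normal development from P5 to P14 was read in the mice given scrambled antimiR in 21% O2. Wnt2 fell by 2.36 in log2 between the ages (SE 0.17, adjusted p = 4.24e-11), from -0.37 to 0.08 at P5 to -2.81 to -2.35 at P14. Wnt10b, a ligand known from bone and fat, rose by 2.16 (4.48-fold, adjusted p = 9.35e-12), from -2.33 to -1.97 to -0.09 to 0.09. Both pairs of groups lay far apart. Dkk2 fell 2.8-fold (adjusted p = 2.38e-08), Fzd10 fell 2.25-fold (adjusted p = 5.09e-05), and Wnt4 and Wnt11 rose 2.05-fold and 1.84-fold (adjusted p = 9.95e-06 and 9.02e-08). The receptors Fzd6, Fzd2 and Fzd1 rose by 0.78, 0.77 and 0.72 (adjusted p = 2.83e-07, 9.16e-06 and 1.55e-06), and Wnt7a by 0.83 (adjusted p = 0.000337). The second Fzd2 probe did not rise (-0.06, adjusted p = 0.567).

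In all, 28 of 52 member probes were called between the ages, 19 higher and 9 lower at P14, against 51.4% of all probes, and the members' median was 0.09 against 0.04. Of 16 ligands 7 were higher and 2 lower, of 12 receptors 3 and 3, of 4 R-spondins 2 and 0, of 7 secreted inhibitors 2 and 2, and of the 4 genes inside the cell 2 and 2. Among the higher ligands, Wnt3a (0.91, adjusted p = 0.0292) was kept only through the P14 mice of this comparison, in which it was high. Axin2 fell by 0.39 (adjusted p = 0.0216), a call lost without replicate 3 at P5 (-0.32, adjusted p = 0.081) or replicate 4 at P14 (-0.27, adjusted p = 0.114), and Lef1 rose by 0.40 (adjusted p = 0.00221), though its second probe changed by 0.16 (adjusted p = 0.261). The second probes of Axin2 (-0.27, adjusted p = 0.279), Nkd1 (0.07, adjusted p = 0.593) and Tcf7 (-0.14, adjusted p = 0.415) were not called either, where the first were. Those of Fzd7 and Lrp6 were called where the first were not, at 1.13 (adjusted p = 2.36e-06) and 0.49 (adjusted p = 0.00152). Wif1 changed by 0.20 (adjusted p = 0.128). The fall of Sfrp1 by 0.91 (adjusted p = 0.00768) was -0.61 and not called without replicate 4 at P5, the mouse with skeletal muscle RNA (adjusted p = 0.0553). Without it the calls of Wnt6 (-0.82, adjusted p = 0.0142, and -0.50 without it, adjusted p = 0.0984) and Rspo4 (0.58, adjusted p = 0.0157, and 0.51 without it, adjusted p = 0.0521) were also lost, the change of Rspo4 staying close in size.

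The effect of 85% O2 differed between the ages for 27 of 52 member probes, 10 with a more positive and 17 with a more negative effect at P14, where 40.8% of all probes differed. This difference was tested directly, as an interaction, in mice given scrambled antimiR. Among genes above background on all arrays compared, positive differences were seen for Sfrp1 (2.73 in log2, SE 0.39, adjusted p = 7.41e-06), Wnt2 (2.11, SE 0.24, adjusted p = 3.29e-07), Fzd9 (1.73, SE 0.60, adjusted p = 0.0228) and Dkk2 (1.57, SE 0.22, adjusted p = 5.56e-06). Fzd9 was at -1.50 in the P5 mouse with skeletal muscle RNA and at -4.60 to -4.11 in the rest of that group, and its difference was 1.01 without that mouse (adjusted p = 0.0292) and was not called without replicate 2 of the P14 mice in 21% O2 (1.51, adjusted p = 0.0551). For Sfrp1, Wnt2, Fzd9 and Dkk2 alike, the P14 mice in 21% O2 were the lowest of the 4 groups in mean level. The most negative called differences were those of Wif1 (-1.88, SE 0.16, adjusted p = 3.29e-09), Fzd7 (-1.17, adjusted p = 0.000792), Fzd1 (-1.10, adjusted p = 1.7e-06) and Wnt7a (-1.09, adjusted p = 0.00109). Lef1 fell further at P14 than at P5, by 0.83 (adjusted p = 7.51e-05), and so did the first Axin2 probe, by 0.71 (adjusted p = 0.006), while the second differed by 0.25 (adjusted p = 0.51). The second probes of Lef1 (-0.57, adjusted p = 0.00904), Fzd7 (-1.05, adjusted p = 0.000652) and Wnt4 (-0.77, adjusted p = 0.00301) were called more negative as well. Fzd2 and Nkd1, called on their first probes, were not called on their second (0.20, adjusted p = 0.214, and -0.07, adjusted p = 0.705). With normexp correction the Axin2 difference was -0.26 and was not called (adjusted p = 0.226). The median difference was -0.26 over the members and 0.04 over all probes.

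In mice given antimiR-34a, 22 of 49 probes were called between oxygen levels at P5, 4 higher and 18 lower (46.6% of all probes, 17.2% higher and 29.5% lower), or 9 higher and 16 lower under quantile normalization. Without replicate 3 in 85% O2, the dimmest array, 24 were called. At P14, 34 of 52 were called, 14 higher and 20 lower (65.6% of all probes, 27.8% higher and 37.8% lower). These are other mice than those given scrambled antimiR, on the same slides. At P5, 17 probes were called with both antimiRs, 70.8% of the calls with scrambled antimiR and 77.3% of those with antimiR-34a, where over all probes these shares were 74.9% and 70.5%. At P14, 31 were, 81.6% and 91.2%, where over all probes the shares were 84.1% and 77.97%. All 17 and all 31 had the same sign, as did 99.8% and 99.7% of all probes called with both. Across probes, which are no independent replicates and share their slides, the correlation of the log2 changes was 0.824 at P5 and 0.959 at P14 for members, and 0.794 and 0.911 for all probes.

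Counted by gene on the first probe, Axin2, Lef1, Tcf7, Rspo2, Rspo4, Wif1, Wnt6 and Wnt11 were lower in all 4 oxygen comparisons (8 of the 40 genes tested at both ages), and Wnt7b was higher in all 4. Counted by probe, 10 of the 49 members tested throughout were lower in all 4 and 1 higher, where 10.4% and 8.25% of all probes were. Among these calls, that of Wnt6 with antimiR-34a at P5 (-0.96, adjusted p = 0.0191) was lost under quantile normalization (-0.71, adjusted p = 0.0808) and without replicate 1 in 21% O2 (-0.81, adjusted p = 0.0609) or in 85% O2 (-0.76, adjusted p = 0.0643). Fzd8, Fzd10, Rspo1, Sfrp2 and Wnt10b (5 genes) were called in none. Wnt1, Wnt2, Wnt4 and Wnt9a (4 genes) were called higher in one comparison and lower in another. For Wnt4 and Wnt1 the higher call, at P5 (0.52, adjusted p = 0.0208) and at P14 (0.29, adjusted p = 0.0236) with antimiR-34a, was lost without replicate 3 in 85% O2 for Wnt4 (0.44, adjusted p = 0.0549) and without replicate 3 in 21% O2 for Wnt1 (0.24, adjusted p = 0.0781). With antimiR-34a, Axin2 was at -0.39, -0.48, -0.36 and -0.57 in 21% O2 and at -2.50, -2.67, -2.70 and -2.76 in 85% O2 at P5. That 4.61-fold fall (adjusted p = 7.99e-09) was followed at P14 by one of 5.26-fold (adjusted p = 3.49e-08). Rspo2 fell 3.25-fold at P5 (adjusted p = 1.62e-07) and 6.28-fold at P14 (adjusted p = 5.76e-05), and Rspo4 fell 2.15-fold (adjusted p = 0.000272) and 5.41-fold (adjusted p = 2.6e-07). Sfrp4 fell 2.01-fold at P5 (adjusted p = 0.000686). Sfrp1 rose 6.07-fold (adjusted p = 9.41e-07), Dkk2 3.33-fold (adjusted p = 8.9e-07) and Wnt2 2.68-fold (adjusted p = 4.87e-06) at P14. Wif1 fell 6.13-fold (adjusted p = 3.75e-09). Wnt2 was called lower at P5 in these mice (-0.94, adjusted p = 0.000442), Wnt9a lower at P5 (-0.39, adjusted p = 0.00635) and higher at P14 (0.58, adjusted p = 0.000197). Wnt8b, in 4 mice in 21% O2 and 0 in 85% O2, was at least 1.85-fold lower at P14 (adjusted p = 0.000152). Wnt3a, in 2 and 0 mice, was also called lower (adjusted p = 0.00269), but no bound holds where the higher group was itself partly not above background. Both were kept only through mice in 21% O2, in which they were high. With normexp correction neither was called, at -0.17 (adjusted p = 0.525) and -0.09 (adjusted p = 0.65). Wnt16 fell by 1.17 at P5 (adjusted p = 0.0199), with 2 of 4 mice above background in 85% O2, a call lost without replicate 2 in 21% O2 (-0.74, adjusted p = 0.0516). The second Axin2 probe rose at P14 here too (0.53, adjusted p = 0.0498), with 0.23 at P5 (adjusted p = 0.276). At P5 the second probes of Wnt4 (0.34, adjusted p = 0.0578), Fzd2 (0.03, adjusted p = 0.746) and Tcf7 (-0.18, adjusted p = 0.323) were not called where the first were, and that of Fzd7 was called lower (-0.60, adjusted p = 0.000916) where the first was not. At P14 the second probes of Tcf7 (-0.27, adjusted p = 0.0843), Fzd5 (0.26, adjusted p = 0.147) and Lrp6 (0.09, adjusted p = 0.453) were not called where the first were, and that of Fzd2 was called higher (0.32, adjusted p = 0.0209) where the first was not.

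By role, with antimiR-34a, 3 ligands rose and 7 fell at P5, and 5 rose and 7 fell at P14, where Wnt3a, Wnt8b, Wnt9b, Wnt10a and Wnt16 were again tested only through groups in which they were high. Of the receptors 1 was higher and 1 lower at P5, and 5 were higher and 3 lower at P14. Of the R-spondins 2 were lower at P5 and 3 at P14. Of the secreted inhibitors 3 were lower at P5, and 2 were higher and 2 lower at P14. Of the genes inside the cell 3 were lower at each age. Of all probes, 17.2% were higher and 29.5% lower at P5, and 27.8% and 37.8% at P14. In replicate 2 of the mice given antimiR-34a in 85% O2 at P14, Rspo2 was at -5.59 and Wnt5b at -0.70, each the lowest of its group, and Rspo3 was at -2.27, the highest. The Wnt5b spot of replicate 3 was marked as an outlier and left out, so its values there rest on 3 mice.

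**Figure D3:**
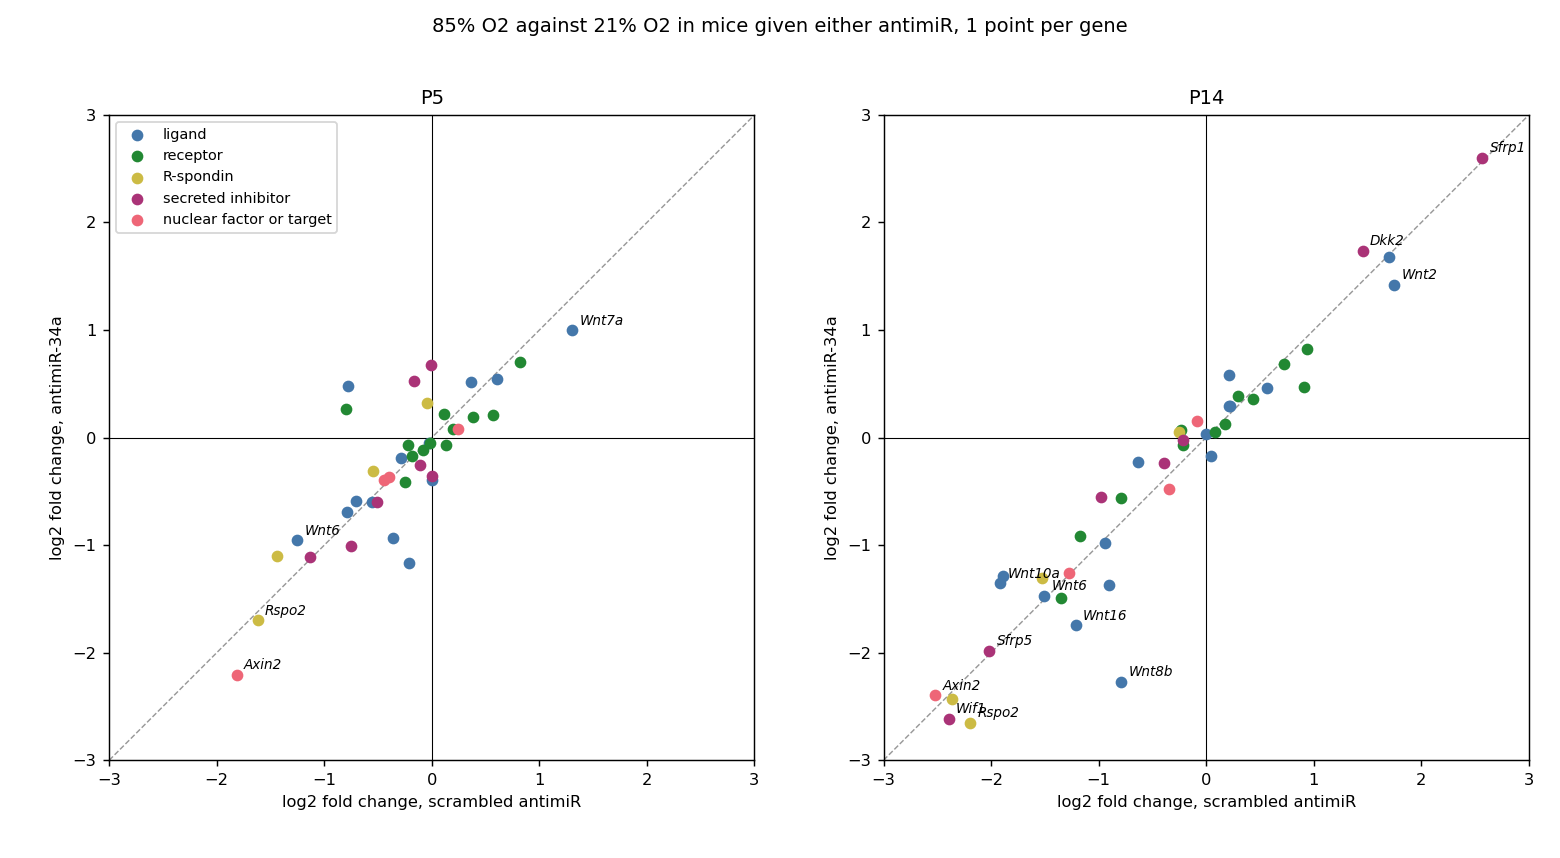
Log2 fold change of 85% O2 against 21% O2 in mice given antimiR-34a (vertical) against that in mice given scrambled antimiR (horizontal), at P5 and at P14, 1 point per member gene coloured by role. The dashed line marks equal change, and at P14 Sfrp1 lies at the upper right and Wif1, Rspo2, Rspo4 and Axin2 at the lower left.

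Whether the oxygen effect itself differed between the antimiRs was tested as an interaction. By limma, 0 of 49 member probes were called at P5 and 0 of 52 at P14, against 0.0556% and 0.0884% of all probes. At P14, 1 was called with array weights and 2 without both arrays of unusual brightness. At an unadjusted p under 0.05 there were 4 and 3 member probes. The methods' t-test has no such interaction.

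The direct comparison of antimiR-34a with scrambled antimiR called no member probe in limma at any age or oxygen level. In 21% O2 at P14 this count changed with the treatment of single arrays, with 9 called under array weights and 3 without both arrays of unusual brightness, and array weights also gave 1 in 21% O2 at P5. In 85% O2, limma called 0 of 49 at P5 (0.0639% of all probes) and 0 of 52 at P14 (2.66% of all probes). In 21% O2 it called 0 of 49 at P5 (0.136%) and 0 of 52 at P14 (0.00%). At an unadjusted p under 0.05 there were 6 and 9 members in 85% O2 and 9 and 5 in 21% O2, where 13.0%, 16.7%, 17.4% and 10.5% of all probes passed. The methods' t-test with the same adjustment also called 0 in each, and 4, 2, 4 and 7 before adjustment. Without replicate 1 of antimiR-34a, 2 member probes were called in 85% O2 at P14, and without replicate 3 of that group 1 was. Without replicate 4 of scrambled antimiR, 1 was called in 21% O2 at P14. The smallest adjusted p of a member by limma was 0.246, 0.0629, 0.0909 and 0.473 in that order.

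The genes that the miR-34 family is reported to repress were no exception. In 85% O2 at P5, Wnt1 differed by 0.12 in log2 (95% interval -0.10 to 0.33), Lrp6 by 0.04 (-0.20 to 0.28), Lef1 by 0.15 (-0.02 to 0.33) and Axin2 by -0.32 (-0.57 to -0.07, adjusted p = 0.291). At P14, Wnt1 differed by -0.24 (-0.47 to -0.02, adjusted p = 0.257), Lrp6 by -0.11 (-0.29 to 0.08), Lef1 by -0.07 (-0.33 to 0.18) and Axin2 by 0.06 (-0.27 to 0.39). These intervals are per gene and are not widened for the number of genes. The signs of Lrp6 at P5 (-0.03 without replicate 3 of antimiR-34a), of Lef1 at P14 (0.03 without replicate 4 of scrambled antimiR) and of Axin2 at P14 (-0.01 without replicate 2 of scrambled antimiR) turned without 1 array. An interval that spans 0 leaves room for a small change, and the groups held 4 mice each.

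Over all tested members, the 95% interval of the antimiR difference lay within 1 log2 unit either way for 36 of 40 genes at P5 and 36 of 43 at P14 in 85% O2, and for 31 of 40 and 40 of 43 in 21% O2. It lay within 0.5 for 24, 20, 26 and 21. In 85% O2 at P5 the unadjusted p was under 0.05 for Rspo4 (0.49), Wnt11 (0.22), Wnt5a (0.26), Wnt9a (-0.31), Dkk3 (-0.22) and Axin2, with adjusted p of 0.246 or more. At P14 it was so for Rspo1 (0.43), Wnt2 (-0.50), Wnt5b (-0.59), Wnt9a (0.22), Wnt9b (0.90), Fzd3 (-0.23), Wnt1, the second Nkd1 probe (-0.35) and Wnt8b, which was above background in neither group. Wnt2 in 21% O2 at P5 was at 0.29, 0.64, 0.68 and 0.48 with antimiR-34a and -0.33 to 0.08 with scrambled antimiR. These groups did not overlap, and the difference of 0.71 had an adjusted p of 0.0909.

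**Figure D4:**
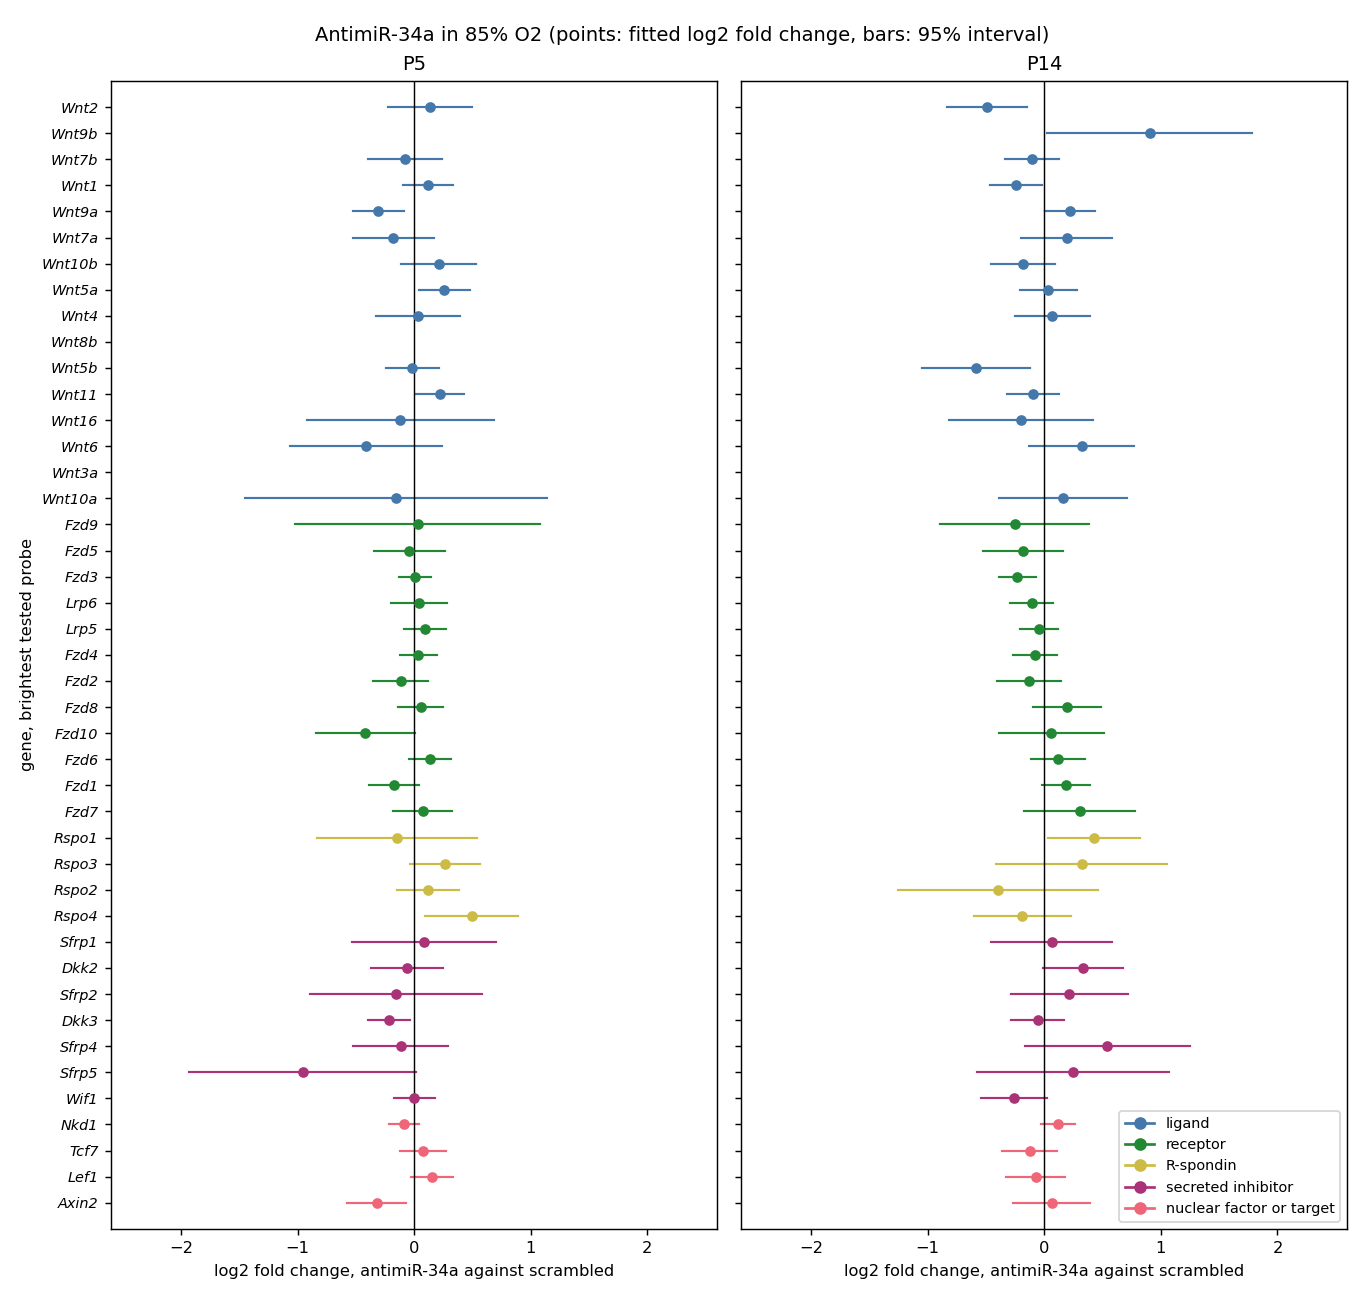
Fitted log2 fold change of antimiR-34a against scrambled antimiR in 85% O2, at P5 and P14, for each member gene, with 95% intervals, coloured by role. Genes above background in neither group are left out. The points lie on both sides of 0, and no adjusted p was under 0.05.

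Outside the members, 2 of 62 genes of the pathway list were called in 85% O2 at P14, where 2.66% of all probes were, both lower with antimiR-34a. Ror1, a receptor of Wnt5a, was at -4.44 ± 0.36 against -3.66 ± 0.25 (SD, n = 4 each, limma adjusted p = 0.0271), and Daam2, which links Dishevelled to the cytoskeleton, at 1.25 ± 0.16 against 1.76 ± 0.16 (adjusted p = 0.015). Between oxygen levels with scrambled antimiR, Ror1 was lower (-0.57, adjusted p = 0.00982) and Daam2 higher (0.41, adjusted p = 0.0023) in 85% O2 at that age. No other listed gene was called in an antimiR comparison, of 61 tested at P5 and 62 at P14.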

How the data were processed

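RNA from whole lung was hybridised to 32 one-colour Agilent mouse arrays. Per the file headers, spots were read and background-subtracted with Agilent Feature Extraction 10.7.3.1, and the deposited processed signal is an intensity on a linear scale, beside the authors' yes-or-no marks (well above background, saturated, outlier), kept here as other values. The authors also deposited log2 values whose columns share one distribution, for which the sources used here name no normalization, and these values served as an alternative. A probe was tested where all 4 mice of some group in the fit had it marked as well above background. Control and outlier spots (0.211% of spots) were left out. Each intensity was divided by the 75th percentile of its array and log2-transformed (the 75th percentile itself lay between 9.20 and 10.2 in log2). Spots of 1 probe were averaged. Group means were fitted in limma 3.58.1 (R 4.3.3, data.table package version 1.17.8) over the 16 arrays of an age, or all 32 for comparisons between ages, with Benjamini-Hochberg adjustment over all tested probes. The scripts were tested on simulated data.

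The members, the pathway list and the marker lists were chosen with earlier results of these data known. Every member may be named; those described in full were a fixed set of main ligands, receptors, R-spondins, inhibitors and nuclear genes, plus the 5 called genes with the largest change and no overlap in each comparison. Where a group had no array above background, a bound was taken from the dimmest probe above background on each array. The number of arrays, 4 a group, limits the precision, and p-values measure only the spread between these mice. The alternatives were normexp background correction with an offset of 50, quantile normalization, other filters, fits on fewer groups, the methods' t-test, a replicate block, array weights, 1 probe per gene, the authors' values and leaving out arrays. Replicate numbers were not treated as pairs, as the deviations of same-numbered mice were not correlated throughout.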

Additional observations from a re-analysis of the deposited data

Results flagged for a closer look

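Of 343 groups of 4 mice checked, 21 held 1 mouse far from the others, and chance alone marks about 1 in 20 groups. In P5 mice given scrambled antimiR in 85% O2, the log2 level stood apart in replicate 1 for Fzd1 (2.36), Wnt7b (-2.82) and Wnt10b (-1.72), in replicate 2 for Lef1 (1.18) and Wnt5a (1.96), and in replicate 4 for Wnt10a (-3.93). In P5 mice given scrambled antimiR in 21% O2 it was replicate 4 that stood apart, for Fzd9 (-1.50) and Wnt10a (-0.851). In P5 mice given antimiR-34a, replicate 3 in 85% O2 stood apart for Fzd3 (-0.481), Sfrp2 (-0.473) and Wnt9a (0.244), and in 21% O2 replicate 3 did for Wnt7a (-2.29) and replicate 4 for Wnt8b (-6.41, not well above background). At P14 with scrambled antimiR these were replicate 1 in 21% O2 for Sfrp4 (-2.13) and Sfrp5 (-2.25), and in 85% O2 replicate 1 for Wnt11 (0.873) and replicate 3 for Fzd4 (3.29). At P14 with antimiR-34a these were replicate 1 in 21% O2 for Fzd7 (0.635), replicate 3 in 21% O2 for Sfrp2 (0.134), and replicate 4 in 85% O2 for Fzd2 (2.42) and Sfrp4 (-2.23).

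The effect of 85% O2 differed between P14 and P5 with scrambled antimiR, by the interaction test in limma, for 24 genes. The effect was more positive at P14, in log2, for Sfrp1 (2.73), Wnt9b (2.66), Wnt2 (2.11), Fzd9 (1.73), Dkk2 (1.57), Wnt5a (0.783), Wnt1 (0.778), Fzd3 (0.531), Fzd4 (0.426) and Lrp5 (0.315). It was more negative for Wif1 (-1.88), Fzd7 (-1.17), Fzd1 (-1.10), Wnt7a (-1.09), Wnt4 (-0.99), Rspo3 (-0.974), Rspo4 (-0.925), Lef1 (-0.832), Fzd2 (-0.732), Axin2 (-0.705), Wnt5b (-0.613), Fzd6 (-0.574), Dkk3 (-0.389) and Nkd1 (-0.332). Wnt9b was above background on 2 of 4 arrays in 21% O2 and 0 of 4 in 85% O2 at P5, and on 1 and 3 of 4 at P14, so its difference rests largely on values not above background. The second probes of Axin2 (0.25, adjusted p = 0.51), Fzd2 (0.20, adjusted p = 0.214) and Nkd1 (-0.07, adjusted p = 0.705) were not called. The call of Rspo3 was lost without any of 11 of the 16 arrays. Those of Wnt5b, Lrp5, Dkk3 and Fzd9 were each lost without at least 1 array, Dkk3 without replicate 4 of the P5 mice in 21% O2 (-0.30, adjusted p = 0.0663).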

How the results depend on the processing

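The counts of member probes called kept within 1.5 times their value under most alternatives, with these exceptions. The methods' t-test called 15 member probes between oxygen levels at P5 with scrambled antimiR, where limma called 24. For antimiR-34a against scrambled antimiR, where limma called 0, array weights gave 9 in 21% O2 at P14 and 1 in 21% O2 at P5, and leaving out both P14 arrays of unusual brightness gave 3 in 21% O2. Fitting the compared groups alone gave 2 in 21% O2 at P5, and keeping only probes above background on every array gave 1 in 85% O2 at P14. The difference of the oxygen effect between antimiRs at P14 gave 1 with array weights and 2 without both arrays. With 1 array left out, the antimiR counts ranged from 0 to 1 in 21% O2 at P14 and from 0 to 2 in 85% O2 at P14, and stayed at 0 at P5. The oxygen counts ranged from 21 to 24 at P5 and 33 to 38 at P14 with scrambled antimiR, and from 20 to 25 and 31 to 35 with antimiR-34a. The age count ranged from 23 to 28 and that of the difference between ages from 25 to 30. Without replicate 4 of the P5 mice in 21% O2 with scrambled antimiR, the one with skeletal muscle RNA, 24 were called between oxygen levels and 30 for the difference between ages.

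Directions turned for single genes. Wnt3a in 85% against 21% O2 at P14 was 0.054 with normexp (adjusted p = 0.794). Against scrambled antimiR in 85% O2, the Lrp6 difference at P5 was -0.0056 with normexp, and with 1 array left out ranged from -0.027 to 0.11. That of Axin2 at P14 ranged from -0.011 to 0.18, and that of Lef1 from -0.14 to 0.027. None of these antimiR differences was called. Of 158 gene results, 17 lost their call with normexp with the direction kept, besides Wnt3a, 13 with quantile normalization and 17 in the authors' values, and of 134 in the methods' t-test 29 did. The cause was not tested. The median change of all probes with oxygen moved from -0.06 to 0.11 with normexp at P14 with scrambled antimiR, and from -0.11 to 0.08 with quantile normalization at P14 with antimiR-34a. Of all calls at P5 with scrambled antimiR, 6300 of 15799 were higher, and 7779 of 14739 with quantile normalization.

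Mice of the same replicate number did not deviate together throughout (correlations from -0.09 to 0.13 between oxygen levels at P5, and from -0.31 to 0.53 between antimiRs in 21% O2 at P14). They were not treated as pairs, though such correlations cannot exclude that some mice shared a litter. With the replicate block, 24 and 38 member probes were called between oxygen levels at P5 and P14 with scrambled antimiR, 22 and 33 with antimiR-34a, 28 between ages, 27 for the difference between ages and 0 in the comparisons of antimiRs. Slide as a block was not run, since oxygen level and age each lie in slides of their own and the antimiRs are already compared within a slide. Probes near background, such as Wnt3a, Wnt8b, Wnt9b, Wnt10a and Wnt16, limit what the signal can show.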
